A study of Mus musculus with 12 samples.

Results

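The mitosis and spindle genes comprised 40 genes that encode Cdk1 and the mitotic cyclins, the kinases, checkpoint proteins, kinetochore proteins, motors and spindle proteins of dividing cells, together with the proteins that separate the chromosomes and the daughter cells. They were listed by symbol, and 39 of the 40 were named by a probe set that carries that symbol alone. Cyclin B1 (Ccnb1) was not, and has no value here. These 39 genes stood among 18193 genes named on the array, and all 39 passed the filter, a zone mean of 50 or more in any zone, as did 11808 genes in all. Where a gene had several probe sets, the probe set with the highest mean log2 signal over the 12 arrays stood for it.

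The signals came from tibiae of untreated CD1 mouse embryos at E15.5, which were cut by morphology into 3 zones. Their RNA was put on MOE 430 2.0 arrays of Affymetrix. Zone I, from both ends of the bone, holds resting and proliferating chondrocytes. Cells of zone II are largely at the prehypertrophic and hypertrophic stages. Zone III is the mid-shaft, where hypertrophy is most advanced and mineral is laid down. Each zone had 4 arrays, lettered A to D, from 4 litters whose segments were pooled within the litter, so n = 4 counts litters and no array holds a pure cell type. In such bulk samples fewer dividing cells and less RNA per cell cannot be told apart.

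As background, cells that enter mitosis do so when Cdk1 and its cyclins become active. Aurora, Polo-like and checkpoint kinases then steer the attachment of chromosomes to spindle microtubules, and the spindle checkpoint holds back the anaphase-promoting complex until every kinetochore is attached. Most of the genes are transcribed only late in the cell cycle, and in the growth plate the columnar chondrocytes divide before they leave the cycle and become hypertrophic.

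Many genes of this kind are known to carry a cell cycle homology region and CCAAT boxes, the latter bound by NF-Y, close to the start of transcription. RefSeq promoter windows, 250 bases before to 50 after the start on GRCm38.p6, were matched by symbol for 35 of the 40 genes and gave 38 windows. Aurkb, Ccna2, Incenp, Kif20a and Tpx2 were not matched. On either strand, TTTGAA or TTCGAA, the letters of a cell cycle homology region, were found in 31 of the 38 windows, or 81.6%, against 19.2% of all 32851 RefSeq promoters and 13.8% of the 12266 promoters of genes tested on the array. CCAAT was found in 30 windows, or 78.9%, against 37.4% of all promoters, and 20 windows held at least 2 copies, or 52.6% against 11.7%. Both kinds of match stood in 28 windows, or 73.7% against 7.52%. The E2F letters searched, TTTCCCGC and TTTGGCGC, were in 0 windows and in 1.56% of all promoters, and TATAAA was in that of Kif2c alone, or 2.63% against 13.6%. Among promoters of genes tested on the array these shares were 2.83% and 7.78%. With 38 windows, counts of 0 and 1 are too small to show a lower share. The windows of Cdk1, Cdc20 and Melk are shown, with the letters of the cell cycle homology region and of CCAAT, on either strand, in capitals. Those of Cdk1 (chr10:69352863-69353162, minus strand) and Cdc20 (chr4:118437294-118437593, minus strand) hold both, and that of Melk (chr4:44300667-44300966, plus strand) holds neither. The genes are those with the highest mean signal among the cyclin, anaphase and kinase genes, and each window reads 5′ to 3′.
Cdk1: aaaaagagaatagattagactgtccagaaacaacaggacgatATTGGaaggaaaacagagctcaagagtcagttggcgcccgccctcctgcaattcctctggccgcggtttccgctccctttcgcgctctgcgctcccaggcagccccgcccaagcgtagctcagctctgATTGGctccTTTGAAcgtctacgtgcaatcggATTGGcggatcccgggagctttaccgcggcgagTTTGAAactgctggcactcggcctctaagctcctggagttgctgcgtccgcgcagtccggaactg
Cdc20: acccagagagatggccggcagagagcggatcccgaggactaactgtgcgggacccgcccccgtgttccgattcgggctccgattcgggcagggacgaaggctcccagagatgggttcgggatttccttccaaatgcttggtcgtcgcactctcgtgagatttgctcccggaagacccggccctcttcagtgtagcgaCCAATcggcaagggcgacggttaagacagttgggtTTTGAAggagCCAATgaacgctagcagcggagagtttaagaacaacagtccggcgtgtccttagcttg
Melk: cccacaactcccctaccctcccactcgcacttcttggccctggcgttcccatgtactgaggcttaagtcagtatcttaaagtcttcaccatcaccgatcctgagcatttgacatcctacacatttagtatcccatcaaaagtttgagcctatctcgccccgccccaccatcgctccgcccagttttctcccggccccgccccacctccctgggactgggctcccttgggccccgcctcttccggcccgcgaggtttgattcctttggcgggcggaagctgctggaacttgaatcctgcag

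The Cdk1 window held 3 CCAAT boxes and 2 cell cycle homology regions, and the Cdc20 window held 2 and 1. Over all windows the first base of a cell cycle homology region lay at a median of -15 bases from the start and that of CCAAT at a median of -67.5 bases. The windows of Melk, Mad2l1, Birc5, Nuf2 and Nusap1 held none of the motifs searched, and of these genes Melk, Birc5 and Nusap1 were lower in zone II than in zone I. These matches are exact letters in a window and no measure of binding, and other spellings of the sites, such as those of E2F, were not searched.

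**Figure D1:**
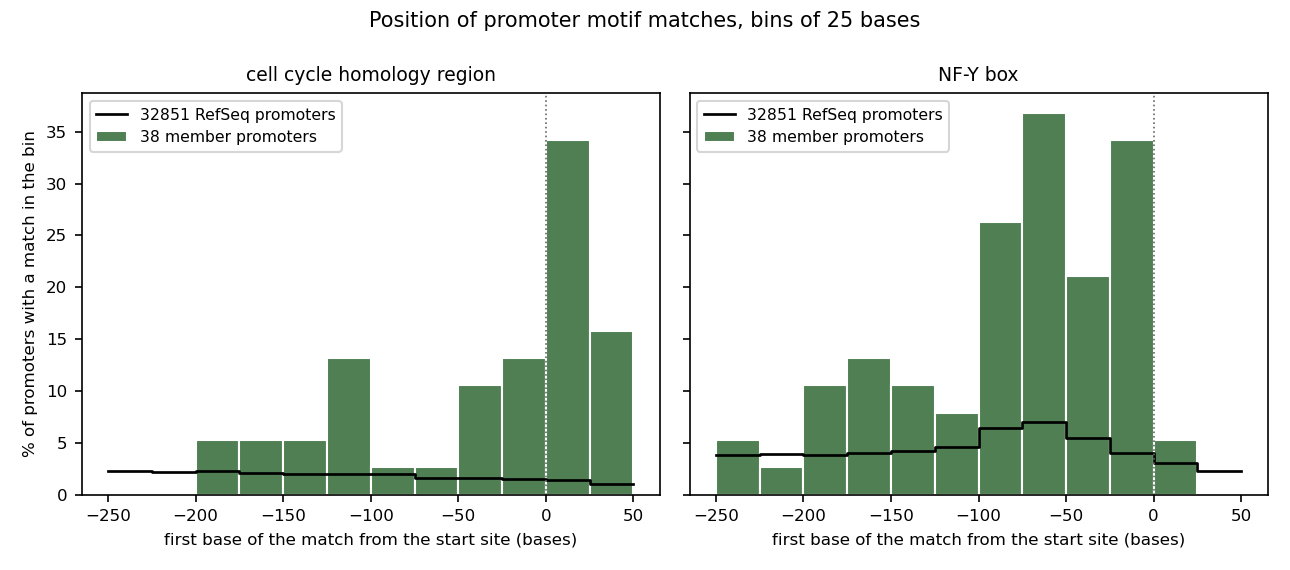
Share of promoters (%) with a match that starts in each bin of 25 bases, by distance from the start of transcription in bases, for the cell cycle homology region (left) and the NF-Y box, CCAAT (right). Bars stand for the 38 windows of the mitosis and spindle genes and the black line for all 32851 RefSeq promoters. In the 25 bases after the start 34.2% of the 38 windows had a cell cycle homology region against 1.43% of all promoters, and between 75 and 50 bases before it 36.8% had CCAAT against 6.99%.

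As deposited, signals were highest in zone I and lowest in zone III for most of the genes, but with centring on ribosomal protein genes zone III lay above zone II for 32 of the 39. By mean log2 signal as deposited 30 of the 39 fell in the order I, II, III, while Aurkb, Cenpf, Espl1, Ect2, Racgap1 and Mki67 were lowest in zone II, Bub3 and Cdc20 were highest in zone II, and Incenp was highest in zone III and lowest in zone II. The highest of the 12 arrays was a zone I array for 35 genes and a zone II array for the other 4, and the lowest was a zone III array for 29 and a zone II array for 10. Of these 29 genes 22 were lowest on 1 array, zone III array D, without which 9 genes in place of 13 were lower in zone III than in zone II (limma), as also without array C. With each gene centred on its own mean, the median over the genes was 0.36 to 0.49 on the log2 scale on the zone I arrays, -0.16 to 0.02 on the zone II arrays and -0.54 to -0.14 on the zone III arrays. Zones I and II did not overlap in this median, and zones II and III did, through zone III array B and zone II array A. The median SD of a gene over the 4 arrays of a zone was 0.20, 0.21 and 0.23 on the log2 scale in zones I, II and III, and the widest was that of Plk1 in zone II, 0.79.

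**Figure D2:**
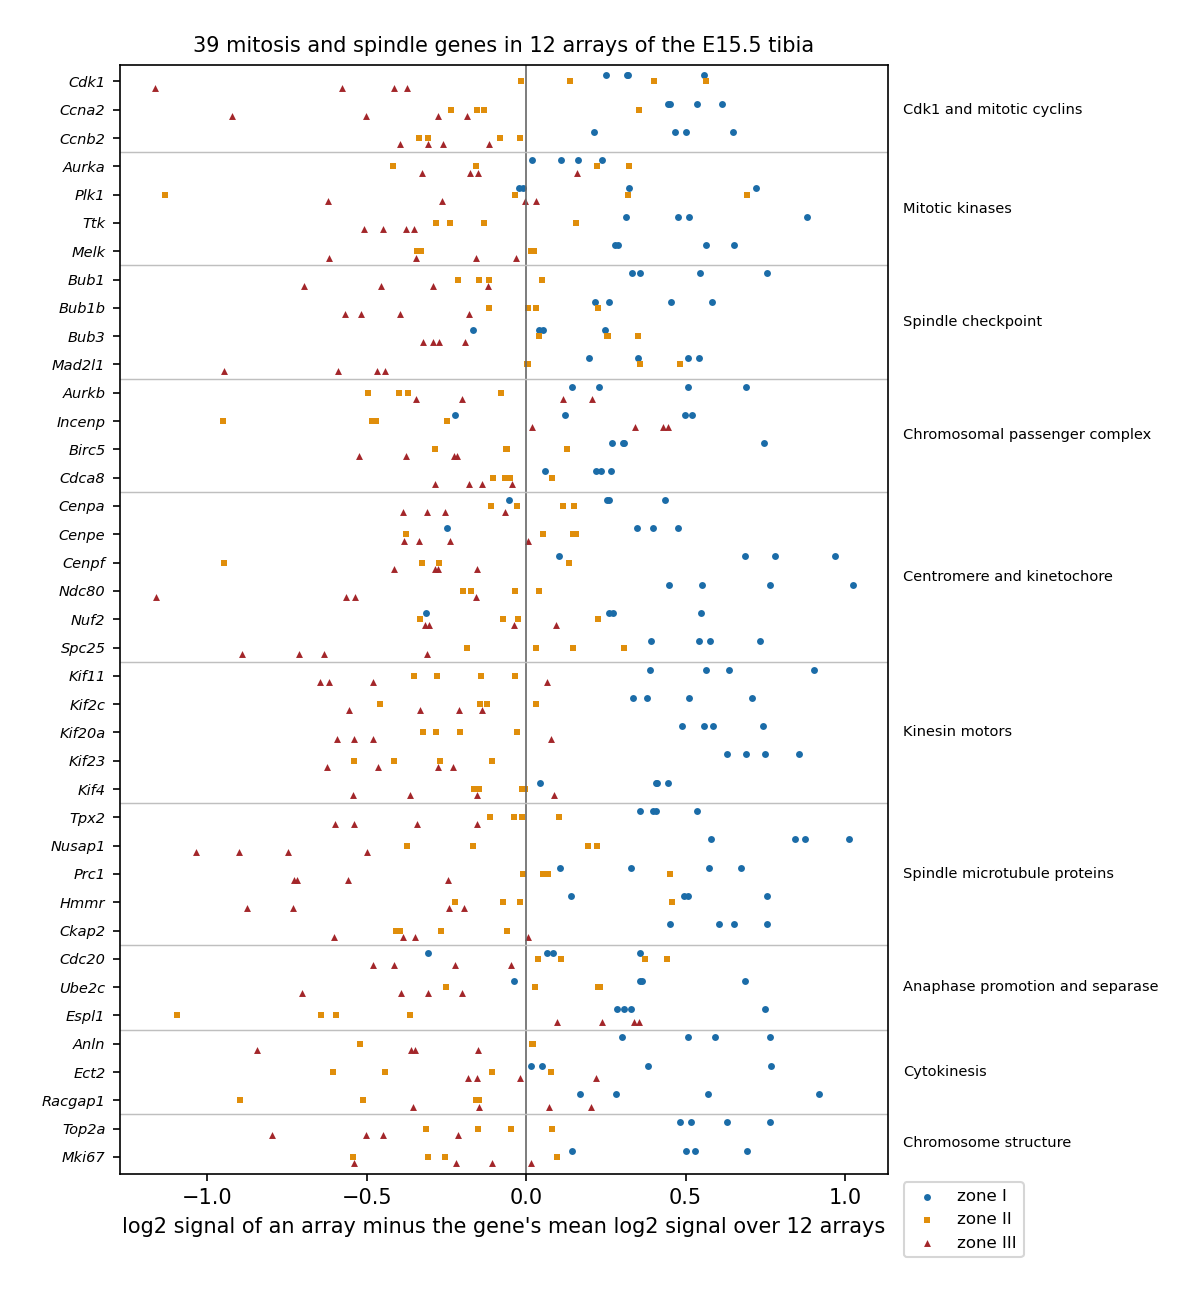
Log2 signal of the 39 genes on each of the 12 arrays, minus the mean of the gene over the arrays, by role (grey lines divide the roles). Circles are zone I, squares zone II and triangles zone III. The zone I points lie to the right for most genes, and for Incenp and Espl1 all zone II points lie left of those of the other zones.

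The comparison of zone II with zone I sets the prehypertrophic and hypertrophic segment against the segment with the proliferating cells. None of the 39 genes was higher in zone II and 25 were lower at an adjusted p under 0.05 (limma), where 16% of all genes tested were higher and 25.4% were lower. At an unadjusted p under 0.05 in limma, 0 were higher and 28 lower. The log2 difference was below 0 for 37 of the 39, its median was -0.57 against -0.09 over all genes, and it reached -1.09. For 23 genes every zone II array lay below every zone I array, against 22.5% of all genes, and for 0 above, against 14.8%.

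The comparison of zone III with zone II asks about the step to the mineralized middle, and it shares the zone II arrays with the first. Here 13 of the 39 genes were lower and 2, Incenp and Espl1, were higher (limma, adjusted p under 0.05), where 22.7% of all genes were lower and 30.8% higher. The median difference was -0.23 against 0.08 over all genes, but it turned to 0.29 when the arrays were centred on ribosomal protein genes, a scaling that moved the median of all probe sets from 0.09 to 0.61. Relative to the median of all probe sets the median of the genes was -0.33 as deposited and -0.29 with quantile normalization. Centring shifts every difference of a comparison by 1 constant, so it could not move this value, and the value does not test the centrings. With centring on ribosomal protein genes 32 of the 39 differences were above 0, 0 genes were lower and 10 higher. With median centring, which moved the median of all probe sets to -0.15, 26 were lower. Of the whole array, 28.5% of probe sets were higher and 20.9% lower as deposited, 57.0% and 6.18% with centring on ribosomal protein genes, and 20.3% and 32% with median centring. So the count of genes that were lower in zone III than in zone II depended on the scaling, and 0 of the 13 were called under every alternative, while Incenp and Espl1 were. For 10 genes every zone III array lay below every zone II array, against 22.7% of all genes, and for Incenp and Espl1 above, against 30%.

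Zone III was compared with zone I, from which it is furthest in maturation, on arrays that both earlier comparisons use. Of the 39 genes 31 were lower and 0 higher (limma, adjusted p under 0.05), where 21.7% of all genes were lower and 21.6% higher. At an unadjusted p under 0.05 in limma, 32 were lower and 0 higher. The median difference was -0.79 against -0.01 over all genes. Of the 39, 7 were at least 2-fold lower, a fold at which the share of all genes was not counted. For 28 genes every zone III array lay below every zone I array, against 22.7% of all genes, and for 0 above, against 22.8%.

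**Figure D3:**
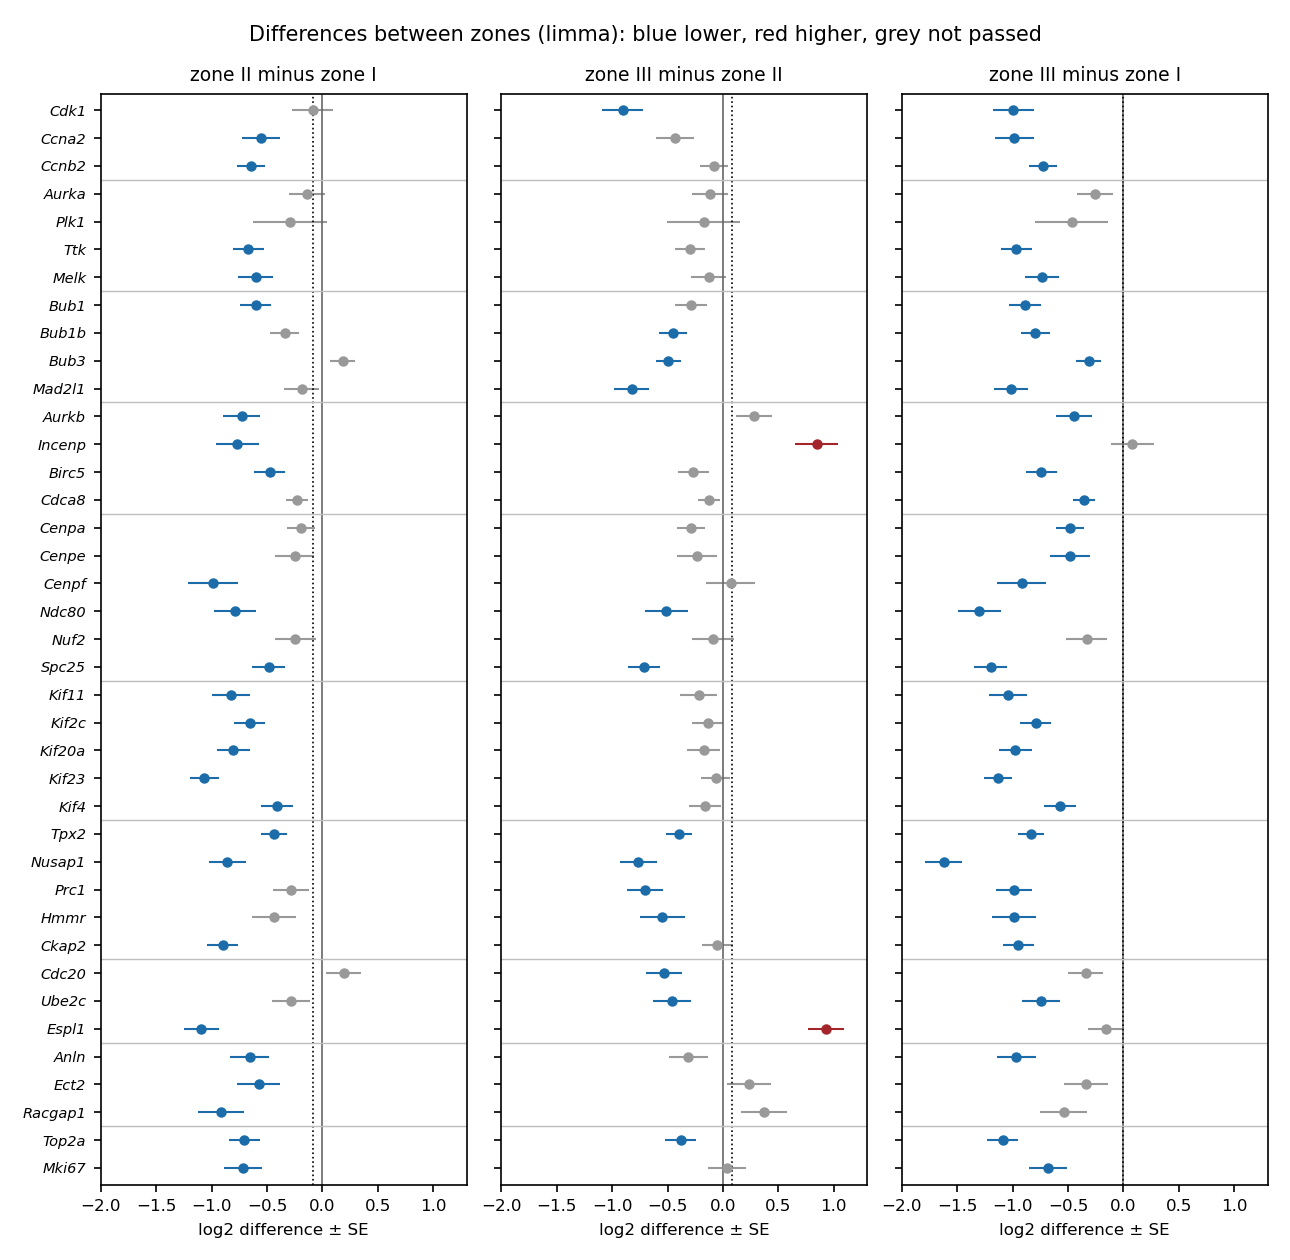
Log2 differences ± SE (limma) of the 39 genes between zones, in the order and roles of the plot by array. Blue points were lower and red points higher at an adjusted p under 0.05, grey points did not pass, and the dotted line is the median over all 11808 genes. The points lie left of 0 for 37 genes in zone II minus I and for 38 in zone III minus I, and in zone III minus II for 32 genes as deposited, while with centring on ribosomal protein genes 32 lay right of 0 there.

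Cdk1 and the mitotic cyclins set the pace of mitosis. Cdk1, the kinase that starts it, had signals of 1771, 1431, 1502 and 1500 on the zone I arrays A to D, 1590, 1778, 1325 and 1190 in zone II and 903, 929, 807 and 537 in zone III. Zones I and II overlapped, and every zone III array lay below both. The log2 difference of Cdk1 was -0.09 ± 0.18 (SE) in zone II against I (adjusted p = 0.743, limma), -0.90 ± 0.18 in III against II (adjusted p = 0.00133) and -0.99 ± 0.18 in III against I. As deposited the cyclins were lower already in zone II against I, with Ccna2 at -0.55 ± 0.17 and Ccnb2 at -0.64 ± 0.13 (adjusted p = 0.0238 and 0.0016, limma), and neither passed in III against II. A second probe set of Ccna2 of nearly equal signal had the reverse, with -0.19 ± 0.14 in zone II against I (adjusted p = 0.32, limma) and -0.66 ± 0.14 in III against II (adjusted p = 0.00224, limma), so the step at which Ccna2 was lower depended on the probe set. Ccna2 lost its call in zone II against I without zone I array B or without zone II array A, C or D, at an adjusted p of 0.0533 to 0.064. With centring on ribosomal protein genes Cdk1 lost its call in III against II, and Ccnb2 turned above 0 and passed as higher there. So the calls of Cdk1 and Ccnb2 at that step depended on the scaling.

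Among the kinases Melk, which is expressed in dividing cells, fell from 561, 565, 726 and 683 in zone I to 365, 368, 470 and 468 in zone II, and stood at 415, 452, 364 and 301 in zone III. Zone I lay above both other zones on every array, and zones II and III overlapped. Melk differed by -0.60 ± 0.16 in zone II against I (adjusted p = 0.00922, limma). Ttk, a kinase of the spindle checkpoint, differed by -0.67 ± 0.14 (adjusted p = 0.00241, limma) and was lower still against zone I in zone III, at -0.97 ± 0.14. Aurka, the Aurora kinase of the spindle poles, did not pass in any comparison, with 250, 291, 276 and 266 in zone I, 221, 184, 309 and 287 in II and 218, 275, 222 and 196 in III. Plk1, a kinase that acts from entry into mitosis to cytokinesis, did not pass either, and its zone II arrays ranged from 98.0 to 347.

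Of the 4 spindle checkpoint genes all were lower in zone III than in I, 3 in III than in II and 1 in II than in I as deposited, which became 3, 0 and 3 with centring on ribosomal protein genes. Of all genes 21.7%, 22.7% and 25.4% were lower in these comparisons as deposited. The 1 of 4 in II against I was thus near the share of all genes. The gene lower in zone II as deposited was Bub1, a checkpoint kinase, by -0.60 ± 0.14 (adjusted p = 0.00556, limma), and a second probe set of Bub1b, a pseudokinase of the checkpoint, passed there too, at -0.43 ± 0.14 (adjusted p = 0.0352, limma). Bub3, which brings Bub1 to the kinetochore, had 2054, 1780, 2370 and 2074 in zone I, 2053, 2386, 2548 and 2382 in II and 1654, 1596, 1750 and 1631 in III. Its zone III arrays lay below all others while zones I and II overlapped. Bub3 differed by -0.50 ± 0.11 in zone III against II (adjusted p = 0.00297, limma), which turned to 0.02 with centring on ribosomal protein genes, and its other probe set did not pass in any comparison. The difference of Bub3 in zone III against I, -0.31 ± 0.11 at an adjusted p of 0.0433 (limma), was no longer called when any 1 of 9 of the 12 arrays was left out. Mad2l1, the checkpoint protein that binds Cdc20, differed by -0.82 ± 0.15 in zone III against II (adjusted p = 0.000769, limma) and kept that sign under each scaling, and its difference in II against I was -0.19 ± 0.15.

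The chromosomal passenger complex joins Aurora kinase B (Aurkb) to Incenp, its scaffold, and to survivin (Birc5) and borealin (Cdca8), which bring it to the centromere. Incenp had 1151, 1168, 888 and 699 in zone I, 686, 422, 588 and 583 in II and 1109, 1098, 1032 and 825 in III. Zone II lay below both other zones on every array, and zones I and III overlapped. Incenp was lower by -0.77 ± 0.19 in zone II against I (adjusted p = 0.00797, limma) and higher by 0.85 ± 0.19, or 1.80-fold, in III against II (adjusted p = 0.00298, limma). Its other probe set gave -0.92 ± 0.30 and 0.87 ± 0.30 and passed in both. Aurkb was lower in zone II against I by -0.73 ± 0.16 (adjusted p = 0.00401, limma) and had 0.28 ± 0.16 in III against II, which did not pass. Cdca8 was at 2027, 2091, 2049 and 1814 in zone I, 1681, 1619, 1663 and 1840 in II and 1580, 1689, 1536 and 1428 in III. Its zone I and III arrays did not overlap, and it differed between these zones by -0.36 ± 0.10 (adjusted p = 0.0123, limma). Birc5 differed by -0.48 ± 0.14 in zone II against I and by -0.74 ± 0.14 in III against I (adjusted p = 0.0172 and 0.00100, limma). All 4 genes of the complex were below 0 in zone II against I, and 3 passed as deposited, 4 with quantile normalization and with centring on ribosomal protein genes and 2 with median centring. As deposited 25.4% of all genes were lower there.

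Centromere and kinetochore proteins mark the centromere or bind microtubules to it. Of the 6, 3 were lower in zone II than in I, 2 were lower in III than in II and 5 were lower in III than in I, counts that were 6, 0 and 3 with centring on ribosomal protein genes and 2, 4 and 5 with median centring. The shares of all genes that were lower as deposited were 25.4%, 22.7% and 21.7%. Ndc80 and Spc25, subunits of the complex that holds the microtubule, were lower at each step as deposited, and Ndc80 alone of the pair turned above 0 in III against II with centring on ribosomal protein genes. Spc25 had 1083, 854, 971 and 948 in zone I, 805, 720, 665 and 572 in II and 397, 525, 419 and 351 in III, with no overlap between any of the zones. It differed by -0.49 ± 0.15 and -0.71 ± 0.15 in the 2 steps (adjusted p = 0.0209 and 0.00154, limma), and the first call was lost without zone I array A or zone II array D (adjusted p = 0.0589 and 0.0596). Ndc80 had 214, 199, 297 and 248 in zone I, 142, 127, 150 and 129 in II and 101, 131, 98.6 and 65.2 in III. Zone I stood clear of both other zones, which overlapped, and the difference of Ndc80 in zone III against II, -0.51 ± 0.19 (adjusted p = 0.0433, limma), turned to 0.01 with centring on ribosomal protein genes. Nuf2, their partner, did not pass in any comparison.

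Cenpf, a large kinetochore protein, had 574, 860, 919 and 1046 in zone I, 277, 586, 442 and 426 in II and 438, 481, 441 and 401 in III. Zones I and II overlapped by zone II array B, and zone III lay below zone I on every array. Cenpf differed by -0.99 ± 0.22 in zone II against I (adjusted p = 0.00414, limma) and by 0.07 ± 0.22 in III against II. Cenpa, the histone H3 variant of the centromere, had 979, 1106, 788 and 976 in zone I, 907, 887, 803 and 758 in II and 686, 781, 659 and 625 in III, with zones I and II overlapping and zone III below zone I on every array. Cenpa differed by -0.19 ± 0.13 in zone II against I, which did not pass, and by -0.48 ± 0.13 in III against I (adjusted p = 0.00926, limma).

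The kinesin motors were all lower in zone II than in zone I, 5 of 5, and none passed in III against II as deposited, where 4 were lower with median centring and 1 was higher with centring on ribosomal protein genes. As deposited 25.4% of all genes were lower in zone II than in I. In III against II 22.7% of all genes were lower and 30.8% higher as deposited. Kif23, a motor of the spindle midzone needed for cytokinesis, had 709, 739, 829 and 770 in zone I, 315, 425, 380 and 343 in II and 331, 390, 378 and 297 in III. Zone I lay far above both other zones, which overlapped throughout. Kif23 differed by -1.07 ± 0.13, or 2.09-fold, in zone II against I (adjusted p = 4.57e-05, limma) and by -0.07 ± 0.13 in III against II. Kif2c, which shortens microtubules at the kinetochore, had 909, 881, 996 and 1143 in zone I, 509, 715, 633 and 642 in II and 605, 635, 556 and 476 in III, again with zone I clear of the rest. It differed by -0.66 ± 0.14 in zone II against I (adjusted p = 0.00287, limma), and a second probe set gave -0.88 ± 0.14, but 2 others did not pass and the median of its probe sets was not called. Kif11, Kif20a and Kif4 differed by -0.82 ± 0.17, -0.80 ± 0.15 and -0.41 ± 0.15 in zone II against I, and the call of Kif4 (adjusted p = 0.0439, limma) was lost when any 1 of 9 of the 12 arrays was left out.

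The spindle microtubule proteins were lower in 3 of 5 genes in zone II against I and in 4 of 5 in III against II as deposited. Of all genes 25.4% and 22.7% were lower in these comparisons. With centring on ribosomal protein genes 5 of 5 were lower in the first step and 0 in the next, where Tpx2 and Ckap2 turned above 0. Of the other probe sets of Tpx2 none was lower at both steps. Nusap1, which bundles microtubules near chromatin, had the largest difference of all 39 genes in zone III against I. Its signals were 1339, 1310, 1091 and 1472 in zone I, 835, 852, 651 and 563 in II and 435, 517, 391 and 356 in III, with no overlap between any of the zones. Nusap1 differed by -0.86 ± 0.17 in zone II against I (adjusted p = 0.00158, limma), -0.76 ± 0.17 in III against II (adjusted p = 0.00213) and -1.62 ± 0.17, or 3.08-fold, in III against I (adjusted p = 8.42e-06). Ckap2, a spindle-associated protein, differed by its first step alone as deposited, and passed as higher in the next with centring on ribosomal protein genes. Its signals were 521, 453, 504 and 560 in zone I, 252, 318, 276 and 250 in II and 261, 333, 254 and 218 in III. Zones II and III of Ckap2 overlapped, and the differences were -0.90 ± 0.14 in zone II against I (adjusted p = 0.000361, limma) and -0.05 ± 0.14 in III against II. Prc1, which crosslinks the microtubules of the spindle midzone, had -0.28 ± 0.16 in the first step, which did not pass, and -0.70 ± 0.16 in the next (adjusted p = 0.00318, limma). With centring on ribosomal protein genes the order for Prc1 was reversed, at -0.63 and -0.19, and only the first passed.

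**Figure D4:**
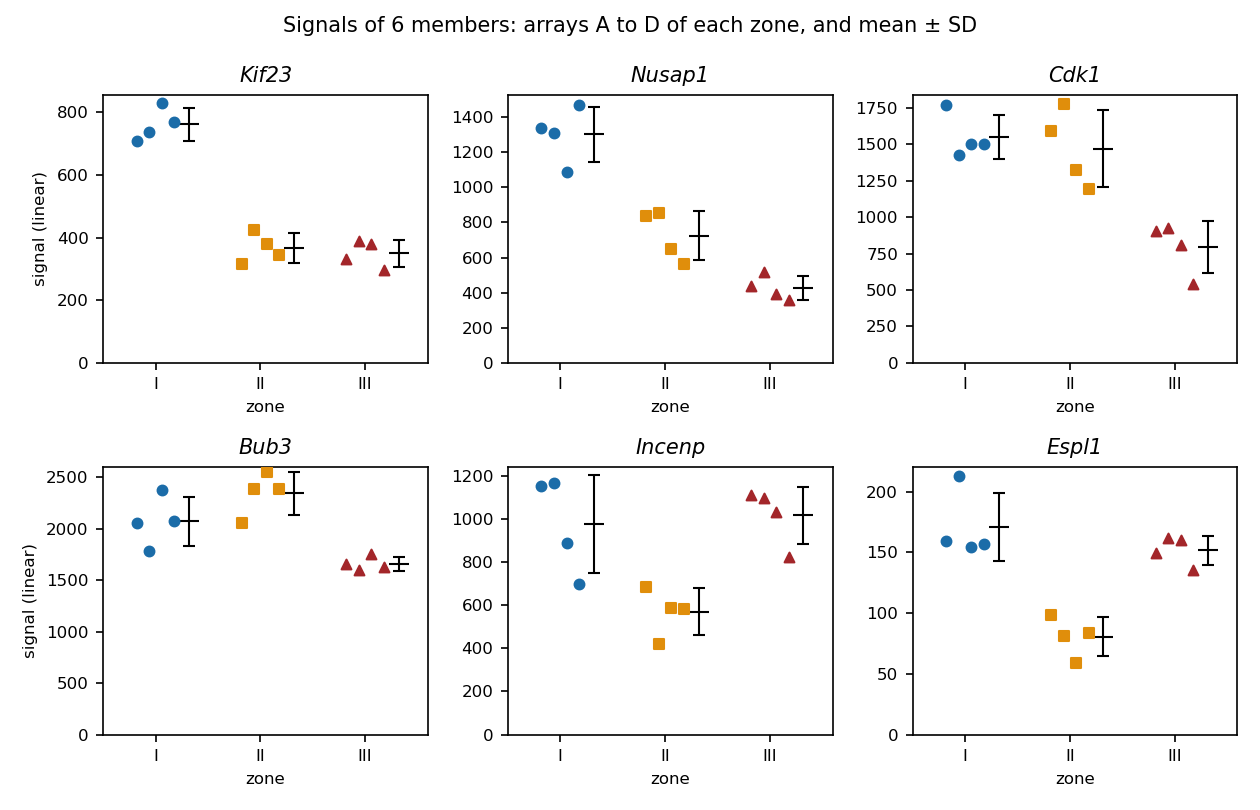
Linear signals of 6 genes in zones I, II and III. Points are the arrays A to D of a zone, the bar beside them the mean ± SD (n = 4), and each axis starts at 0. Kif23 was at 761.7 ± 51.5 in zone I and 365.7 ± 47.6 in zone II, Nusap1 was lower at each step, Cdk1 and Bub3 were lowest in zone III, and Incenp and Espl1 were lowest in zone II.

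Of the 3 genes of anaphase Cdc20 and Ube2c passed as lower in zone III against II as deposited, a call that both lost with centring on ribosomal protein genes, and Espl1 passed as higher. Of all genes 22.7% were lower and 30.8% higher there as deposited. Cdc20, which activates the anaphase-promoting complex, had 1063, 1299, 1076 and 819 in zone I, 1094, 1042, 1314 and 1379 in II and 868, 762, 727 and 982 in III. Zone III lay below zone II on every array, and zone I overlapped with both. Cdc20 differed by 0.19 ± 0.16 in zone II against I, which did not pass, and by -0.53 ± 0.16 in III against II (adjusted p = 0.0145, limma). Its other probe set gave -0.39 ± 0.20 and -0.24 ± 0.20, neither of which passed, so the probe sets of Cdc20 differed in sign in the first comparison. Ube2c, the ubiquitin-conjugating enzyme of that complex, was at 558 ± 112 in zone I, 455 ± 68.5 in II and 331 ± 47.1 in III (mean ± SD, n = 4). It differed by -0.28 ± 0.17 in zone II against I, which did not pass, and by -0.46 ± 0.17 in III against II (adjusted p = 0.0422, limma), which turned to 0.06 with centring on ribosomal protein genes. Espl1, the separase that cuts cohesin, had 159, 213, 154 and 157 in zone I, 98.3, 81.0, 59.3 and 83.8 in II and 149, 162, 160 and 135 in III. Zone II lay below both other zones on every array. Espl1 differed by -1.09 ± 0.16, or 2.13-fold, in zone II against I (adjusted p = 0.000225, limma) and by 0.93 ± 0.16, or 1.91-fold, in III against II (adjusted p = 0.000411), and by -0.16 ± 0.16 in III against I, which did not pass.

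The cytokinesis genes, Anln, Ect2 and Racgap1, were all lower in zone II than in zone I, and none passed in III against II as deposited, where 2 were higher with centring on ribosomal protein genes and 1 was lower with median centring. The share of all genes lower in zone II than in zone I was 25.4% as deposited. In III against II 22.7% of all genes were lower and 30.8% higher as deposited. Ect2, which is needed for cytokinesis, had 881, 1108, 860 and 1450 in zone I, 626, 559, 898 and 790 in II and 839, 991, 764 and 750 in III. Its zones overlapped, the difference in zone II against I was -0.57 ± 0.19 (adjusted p = 0.0354, limma), and it was lost without zone I array B or D or zone II array A or B (adjusted p = 0.0724 to 0.0992). Racgap1, the partner of Kif23 at the midzone, differed by -0.91 ± 0.21 in zone II against I (adjusted p = 0.00444, limma), and its other probe set by -0.30 ± 0.17, which did not pass. Mki67, the proliferation antigen that coats mitotic chromosomes, had 1387, 1812, 2028 and 1776 in zone I, 862, 1343, 1014 and 1053 in II and 1167, 1269, 1077 and 863 in III. Zone I lay above both other zones on every array, and these overlapped. Mki67 differed by -0.72 ± 0.17 in zone II against I (adjusted p = 0.0055, limma) and by 0.04 ± 0.17 in III against II. Top2a, the topoisomerase that untangles sister chromatids, differed by -0.71 ± 0.14 in zone II against I (adjusted p = 0.00172, limma) and by -1.09 ± 0.14, or 2.13-fold, in III against I (adjusted p = 5.16e-05).

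Other genes of mitosis followed, from a list of 72 of which 67 were tested. In zone II against I 28 were lower and 1 higher, where 25.4% and 16% of all genes were, with a median difference of -0.45. These counts were 17 and 4 with median centring and 55 and 0 with centring on ribosomal protein genes. The 2 centrings moved the median of all probe sets there from -0.07 to 0.11 and to -0.42. The shares of all genes given are thus those as deposited and no measure for the centred counts. In III against I 44 were lower and 0 higher, where 21.7% and 21.6% of all genes were, with a median of -0.66. In III against II 19 were lower and 2 higher, where 22.7% and 30.8% of all genes were. The median there of -0.19 turned to 0.33 with centring on ribosomal protein genes, where 3 were lower and 23 higher. The 2 that were higher were Dsn1, a kinetochore protein, at 0.44 ± 0.12 (adjusted p = 0.00656, limma), and Haspin, the kinase that marks histone H3 for the passenger complex. Haspin was at 71.7 ± 17.1 in zone I, 25.3 ± 6.02 in II and 71.7 ± 14.8 in III (mean ± SD, n = 4), and passed in both steps (adjusted p = 0.000345 and 0.000171, limma). Its zone II mean was below the filter's 50, so Haspin passed the filter through zones I and III alone and its differences have no firm size. Cenpw, a centromere protein, went the other way, with 247 ± 67.2 in zone I, 374 ± 97.6 in II and 127 ± 11.4 in III, and was higher by 0.60 ± 0.21 in zone II against I (adjusted p = 0.0375, limma).

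The anaphase-promoting complex and cohesin, on which Cdc20 and Espl1 act, are present outside mitosis too. Of the 14 subunits of the complex 2 were higher and 1 lower in zone II than in I, where 16% and 25.4% of all genes were. With median centring 7 were higher and 1 lower, with centring on ribosomal protein genes 0 and 4, and the median of 0.18 turned to -0.17 with centring on ribosomal protein genes. The median of all probe sets moved from -0.07 to 0.11 with the first centring and to -0.42 with the other. The shares of all genes are those as deposited. In zone III against II 6 of the 14 were lower and 1 higher, where 22.7% and 30.8% of all genes were. The median there of -0.31 turned to 0.21 with centring on ribosomal protein genes, where 1 was lower and 5 higher. Cdc26 was the lowest in that comparison, at -0.997 ± 0.142 (adjusted p = 9.18e-05, limma). Of the 10 cohesin genes 5 were lower in zone II than in I, where 25.4% of all genes were, with a median of -0.41. The 5 became 2 with median centring and 9 with centring on ribosomal protein genes, with the same shifts of the whole array. In III against II 2, Nipbl and Pds5b, were higher as deposited, a share below the 30.8% of all genes. The list's median of 0.13 there turned to -0.11 with median centring. With centring on ribosomal protein genes it was 0.65 and 9 of the 10 were higher, where the median of all probe sets was 0.61. So the count of higher cohesin genes depended on the scaling. Nipbl, which loads cohesin, differed by -0.57 ± 0.18 and 0.75 ± 0.18 (adjusted p = 0.0245 and 0.00354, limma).

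Genes of DNA replication act in the S phase that precedes mitosis. Of 43 tested, 26 were lower and 0 higher in zone II than in I, where 25.4% and 16% of all genes were. Their median was -0.45, and the 26 became 14 with median centring and 39 with centring on ribosomal protein genes. The median of all probe sets moved there from -0.07 to 0.11 and to -0.42, and the shares of all genes are those as deposited. Further, 25 were lower and 0 higher in III than in I, where 21.7% and 21.6% of all genes were, with a median of -0.59. In zone III against II 11 were lower and 8 higher, where 22.7% and 30.8% of all genes were, so the share that was lower was near that of all genes. The median there of -0.05 turned to 0.47 with centring on ribosomal protein genes. Tk1, thymidine kinase, was lower by -1.32 ± 0.17 in zone II against I (adjusted p = 6.63e-05, limma). Cdt1, which licenses origins, had 980 ± 243 in zone I, 468 ± 88.6 in II and 1010 ± 112 in III (mean ± SD, n = 4), and was higher by 1.12 ± 0.18 in III against II (adjusted p = 0.000262, limma), whereas Dut, which removes dUTP, was lower there by -1.22 ± 0.12 (adjusted p = 3.4e-06).

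**Figure D5:**
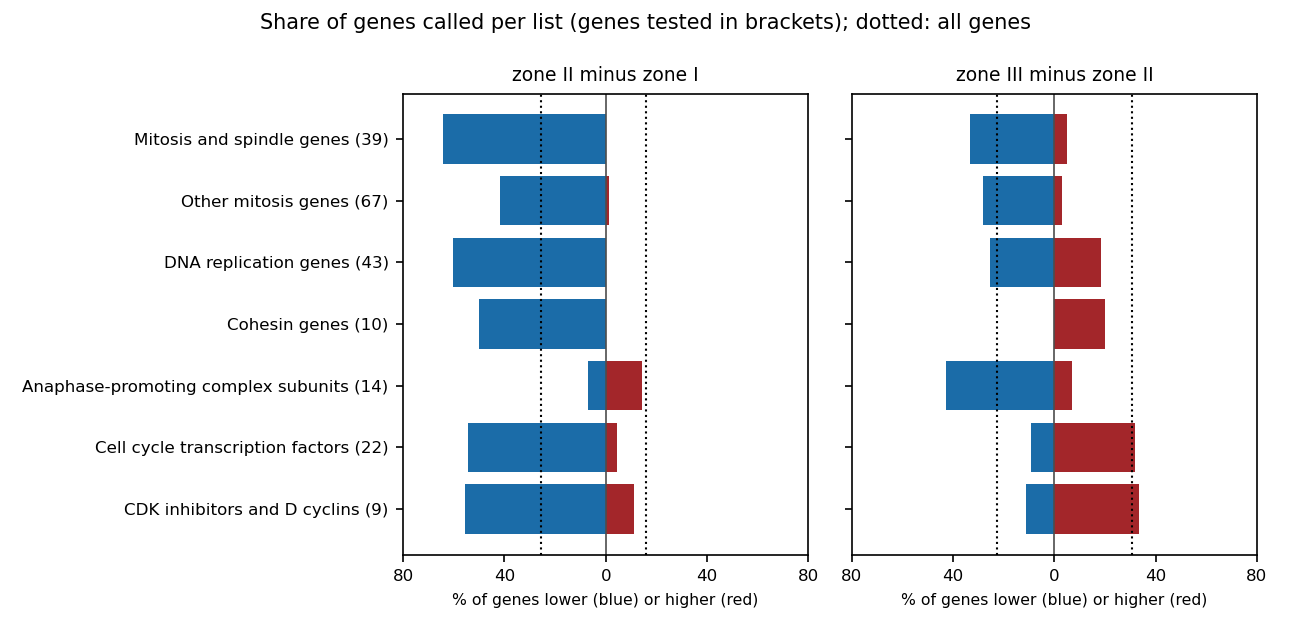
Share of the genes tested (%) that were lower (blue, to the left) or higher (red, to the right) at an adjusted p under 0.05 in zone II minus I and zone III minus II, for the mitosis and spindle genes and 6 other lists, with the number of genes tested in brackets. Dotted lines mark the share of all 11808 genes, 25.4% lower and 16% higher on the left and 22.7% and 30.8% on the right. The bars of zone III minus II changed with the scaling, and with centring on ribosomal protein genes 0 of the 39 mitosis and spindle genes were lower.

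Transcription factors of the cell cycle were lower in 12 and higher in 1 of 22 genes in zone II against I. Of all genes 25.4% were lower and 16% higher there, and the list's median was -0.40. In zone III against II 7 were higher and 2 lower, where 30.8% and 22.7% of all genes were, so the share that was higher was near that of all genes. These counts were 14 and 0 with centring on ribosomal protein genes and 5 and 5 with median centring, and the median of 0.10 turned to -0.11 with quantile normalization and to -0.14 with median centring. Rb1, the retinoblastoma protein that restrains E2F, was higher in zone II than in I by 1.55 ± 0.12 (adjusted p = 1.12e-06, limma). E2f7, a repressor of the E2F family, was lower by -1.36 ± 0.17 (adjusted p = 7.81e-05) and rose again by 0.82 ± 0.17 in III against II (adjusted p = 0.00184, limma). Foxm1 and Mybl2, activators of mitotic genes that were picked after their values were seen, did not pass in any comparison, with 175 ± 33.7, 190 ± 12.7 and 183 ± 12.7 for Foxm1 in zones I, II and III. Lin54, the subunit of the MuvB complex that binds the cell cycle homology region, was picked in the same way and was lower by -0.73 ± 0.18 in zone II against I (adjusted p = 0.00696, limma). Of the other MuvB subunits listed, Lin9 was lower there too, by -0.66 ± 0.16 (adjusted p = 0.00753, limma). Lin37 and Lin52 did not pass in any comparison. The NF-Y genes were also picked after their values were seen. Nfya was lower by -0.74 ± 0.12 in zone II against I (adjusted p = 0.000578, limma). It was higher by 0.99 ± 0.12 in III against II (adjusted p = 3.07e-05, limma). Nfyb was lower by -0.41 ± 0.13 in zone II against I (adjusted p = 0.0267, limma), and Nfyc did not pass in any comparison.

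Of 9 CDK inhibitors and D cyclins 1 was higher and 5 were lower in zone II than in I, against 16% and 25.4% of all genes. In III against II 3 were higher and 1 lower, against 30.8% and 22.7%. With median centring these counts were 3 and 3 in both, while the shares of all genes are those as deposited. Cdkn1b and Cdkn2c were lower in zone II than in I, by -0.49 ± 0.14 and -0.80 ± 0.17 (adjusted p = 0.0134 and 0.00246, limma). Cdkn1c was lower in III against II by -1.18 ± 0.15 (adjusted p = 2.66e-05, limma). The inhibitor Cdkn1a had the largest difference in zone II against I. It was at 145 ± 27.4 in zone I, 1647 ± 245 in II and 1976 ± 237 in III (mean ± SD, n = 4), a difference of 3.51 ± 0.16 (adjusted p = 2.6e-08, limma). Cdkn2b was below 50 on average in zones I and II and reached 482 ± 46.9 in zone III, and passed as higher in III against II (adjusted p = 1.87e-05, limma), with no firm size since it passed the filter through zone III alone. Ccnd1, a cyclin that drives entry into the cycle, was lower by -1.58 ± 0.12 in zone II against I (adjusted p = 1.53e-06) and higher by 0.94 ± 0.12 in III against II (adjusted p = 4.42e-05).

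Markers of the cells in the segments moved with the zones. The summed signal of 5 hypertrophic chondrocyte markers was 539 to 663 on the zone I arrays, 12442 to 15224 in zone II and 8789 to 10464 in zone III, and that of 10 early chondrocyte markers was 21932 to 27445, 31847 to 34827 and 9811 to 12159. The summed signal of 10 endothelial markers was 940 to 1595 in zone I, 396 to 743 in II and 3194 to 3582 in III. All 10 were lower in zone II than in I, against 25.4% of all genes, and all 10 higher in III than in II, against 30.8%. Pecam1, Cdh5, Tek, Tie1, Emcn and Robo4 had a mean below 50 in zone II. Pecam1 and Tie1 were below 50 in zone I too. They passed the filter through zone III alone, so that they were higher there followed from the filter. For 10 macrophage and osteoclast markers the sums were 1388 to 2065, 930 to 1601 and 11691 to 14126. All 10 of these were higher in III than in II, against 30.8% of all genes. Cd68, Tyrobp, Fcer1g and Ocstamp had a mean below 50 in zone II. Fcer1g and Ocstamp were below 50 in zone I too, so they also passed the filter through zone III alone. The 6 osteoblast markers summed to 1176 to 1668, 1571 to 2645 and 9238 to 10133, and 7 perichondrium and fibrous tissue markers to 12139 to 15646, 5397 to 8467 and 9114 to 11375. Like Incenp, Espl1 and Nipbl, the endothelial and perichondrial sums were lowest in zone II. The median macrophage and erythroid sums were lowest in zone II too, at 1050 and 563, with arrays that overlapped those of zone I. The part of any of these cells in the signals of Incenp, Espl1 and Nipbl was not tested. Erythroid markers, 7 with a probe set, summed to 931 to 3288, 515 to 3453 and 1563 to 3749, and 8 skeletal muscle markers to 438 to 2398, 600 to 1284 and 418 to 1025.

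Each array was scaled to the same trimmed mean of 150, and the median signal per array was 32.4 to 43.3. The ratio of the 3′ to the 5′ control probe sets of Gapdh was 1.25 to 1.76 over the arrays of zones I and II but 1.98 to 2.28 over those of zone III. That of actin was 2.09 to 3.23 and 1.70 to 2.02, and their part in the differences was not tested. The arrays went through 3 fluidics runs of 4, each with all 3 zones. Within the runs the median difference of the 39 genes was -0.57, -0.49 and -0.55 in zone II against I, -0.09, -0.08 and -0.36 in III against II, and -0.69, -0.57 and -0.98 in III against I.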

How the data were processed

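The deposited linear signal intensities were used as the authors gave them, scaled before deposition to a mean of 150 per array (2% trimmed at each end). GCRMA and RMA are named in the methods and RMA in the submitters' processing notes, but linear values with a common trimmed mean are not what these give. The algorithm behind them is thus not given in the sources used. All 12 columns were matched to zones by the sample records. Of 45101 probe sets 64 were controls, 34945 were named by 1 gene symbol through GEO's platform annotation, 932 by several and 9160 by none, and only those with 1 symbol were used for names. Of the rest 22255 reached a zone mean of 50 or more in any zone, and their log2 signal (no constant added) was fitted with limma 3.58.1 in R 4.3.3 (lmFit, contrasts.fit and eBayes) on all 12 arrays without a block. Benjamini-Hochberg adjustment ran over all probe sets within a comparison, and a gene was called at an adjusted p under 0.05. Differences are the second zone named subtracted from the first, with the SE from limma, and signals carry mean ± SD over 4 arrays, a number that limits their precision. The script was tested on simulated data. Tables were made with Python 3.11.15, pandas 2.3.3 and numpy 2.4.6.

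The members, the gene lists and the tests were chosen with earlier results of these data known. Genes are named by role: the member with the highest mean signal of each of the 10 roles, the largest called differences, and up to 2 genes per direction of each list in the first comparisons. Other members are named to account for their role, and genes picked after their values were seen are marked so. Probe sets ending in _x_at, such as those of Aurkb, Incenp, Kif2c and Cdc20, or in _s_at, such as those of Bub3, Cdca8 and Prc1, can bind related transcripts, whose share was not tested. Other probe sets, 28 for 20 of the genes, had the sign of the main probe set in 21, 21 and 26 cases in zone II against I, III against II and III against I, and the same call in 17, 19 and 16, with 0 calls in the opposite direction. Motifs were searched as exact letters on both strands. The alternatives were other filters, quantile normalization, median centring, centring on ribosomal protein genes, log2 of the signal plus 16, the 8 arrays of a comparison alone, blocks by letter and by fluidics run, a mean-variance trend, a fold of at least 1.5, the median over a gene's several probe sets and leaving out each array. No raw array files were used.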

Additional observations from a re-analysis of the deposited data

Results flagged for a closer look

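Of 117 groups of 4 arrays (39 genes in 3 zones), 6 held an array whose gap to the nearest other array, divided by the range of the group, was above Dixon's 95% limit, and chance flags about 1 in 20 groups. Birc5 was at 954 on zone I array C against 686 to 704 on the others. Espl1 was at 213 on zone I array B against 154 to 159. Kif4 was at 301 on zone I array B against 387 to 397. Prc1 was at 819 on zone II array C against 594 to 628, and Anln at 398 on zone II array A against 579 to 580. Kif20a was at 206 on zone III array B against 130 to 140. Zone I array B was the array apart for 2 of these genes, Espl1 and Kif4.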

How the results depend on the processing

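The counts in zone II against I and in III against I stayed within 1.5 times under the alternatives run, apart from 1 gene that was higher in zone II with median centring, Bub3. In III against II the count of lower genes, 13, was 26 with median centring, 0 with centring on ribosomal protein genes and 5 with a fold of at least 1.5, and the count of higher genes, 2, was 10 with centring on ribosomal protein genes. With that centring the median turned to 0.29, 32 of 39 differences were above 0, and among genes called with either scaling those of Ccnb2 turned to 0.43, Bub1b to 0.066, Bub3 to 0.023, Cdca8 to 0.39, Ndc80 to 0.0053, Kif23 to 0.45, Tpx2 to 0.12, Ckap2 to 0.47, Ube2c to 0.060 and Top2a to 0.14. It shifts every difference of a comparison by 1 constant, and which scaling holds for these tissues was not tested. Without each array in turn 22 to 26 genes were lower and 0 to 0 higher in II against I, 9 to 14 and 2 to 2 in III against II, and 28 to 31 and 0 to 0 in III against I. The medians then lay between -0.65 and -0.52, -0.32 and -0.18, and -0.85 and -0.71. Of the called genes 21 of 25, 11 of 15 and 28 of 31 kept their call without any 1 array. Called under every alternative were 18 of 25 lower genes in II against I and 22 of 31 in III against I. Letters were taken as a replicate block only here, since the labels do not say what a letter stands for. Arrays of the same letter deviated together in 8 of 12 zone pairs by a correlation over 0.1 (-0.13 to 0.26). When each array was set against each other zone, 16 of 24 times the best correlated array had its own letter. With the replicate block 23, 13 and 32 genes were lower and 0, 2 and 0 higher, so it moved no count by 1.5 times. The number of arrays, 4 per zone, limits the precision of every value.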
